A study of Mus musculus with 10 samples.

Results

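MHC class I molecules carry peptides made inside the cell to its surface, where CD8+ T cells and NK cells read them. The genes described here are 8 class I heavy chain genes, H2-K1, H2-D1, H2-Q4, H2-Q6, H2-Q7, H2-T22, H2-T23 and H2-M3, with the light chain gene B2m and the regulator gene Nlrc5. They were chosen by gene symbol, which gave 10 of the 54532 genes in the table. All 10 passed the filter on low counts. Bulk RNA-seq was done on kidneys with unilateral ureteral obstruction (UUO) from male C57BL/6 mice labelled WT. The ureter was obstructed when the mice were 8 weeks old, and the kidneys were taken 14 days after it. A group of 5 mice received dimethyl malonate (DMM), an inhibitor of succinate dehydrogenase, by intraperitoneal injection of 40 mg/kg every other day. The control group of 5 mice received PBS. The libraries, a single one per mouse, are named CTL1 to CTL5 for PBS and DMM1 to DMM5 for DMM, and kidneys without obstruction were not analysed here. The total count was 16457495 to 18078777 per library in PBS kidneys and 15722527 to 19475833 in DMM-treated kidneys. The comparison asks how class I transcripts in UUO kidneys differ when DMM is given.

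The class I heavy chain folds in the endoplasmic reticulum together with B2m, takes up a peptide that the TAP transporter has pumped in from the proteasome, and then moves to the cell surface. The classical chains H2-K and H2-D present peptides to CD8+ T cells, whereas the Q, T and M chains are nonclassical, less variable molecules with narrower tasks. Nlrc5 is a transcriptional coactivator that interferon gamma induces and that drives class I genes through their promoters, and in kidney the class I level rises on tubular, endothelial and immune cells during inflammation.

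The libraries of a group did not resemble each other equally. In the authors' deposited group means, CTL3 and DMM1 had a weight of 0, which was computed from 28001 genes, whereas the other 4 libraries of each group entered. Values are therefore given over all 10 libraries and over the 8 libraries without CTL3 and DMM1. The reason for the weight of 0 is not given in the sources used here. DMM4 also stood apart. The chi-square per degree of freedom between its counts and those of the other DMM libraries was 166 to 191, against 9.95 to 15.5 among DMM2, DMM3 and DMM5. For DMM1 against DMM2, DMM3 and DMM5 it was 49.4 to 88.9, and between PBS libraries 10.31 to 81.6. The 10 class I genes took up 0.433% to 0.669% of all counts in PBS kidneys and 0.485, 0.254, 0.270, 0.110 and 0.235% in DMM1 to DMM5. DMM1 lay within the PBS range, and DMM4 had the lowest share of the 10 libraries.

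B2m and the classical chains were among the most abundant transcripts of the PBS-treated UUO kidney. Per length, as the FPKM that the authors deposited, B2m was at 1629 ± 311 FPKM (mean ± SD, n = 5), the 12th highest of the 54532 genes. H2-K1 stood at 594 ± 102 FPKM (rank 29) and H2-D1 at 521 ± 77.5 FPKM (rank 39). H2-K1 was above H2-D1 in all 10 libraries, although their PBS ranges overlapped. The nonclassical H2-T23 followed at 156 ± 32.4 FPKM, clear of its neighbours in the order. H2-Q4 at 79.8 ± 11.5 FPKM, H2-Q6 at 73.9 ± 15.5 FPKM and H2-T22 at 65.3 ± 11.1 FPKM had overlapping PBS ranges. Within libraries, H2-Q4 was above H2-T22 in 5 of 5 PBS kidneys but below it in DMM4, at 12.4 against 20.1 FPKM. H2-Q4 was above H2-Q6 in 7 of the 10 libraries, and H2-Q6 above H2-T22 in 8 of 10. H2-Q7 was at 23.1 ± 4.19 FPKM. The lowest levels were those of H2-M3 at 15.9 ± 2.70 FPKM and of the regulator Nlrc5 at 11.2 ± 1.32 FPKM, with overlapping ranges. In DMM-treated kidneys the means were lower for each of the 10 genes, from 809 FPKM for B2m and 305 FPKM for H2-K1 to 7.995 FPKM for H2-M3 and 4.73 FPKM for Nlrc5.

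**Figure D1:**
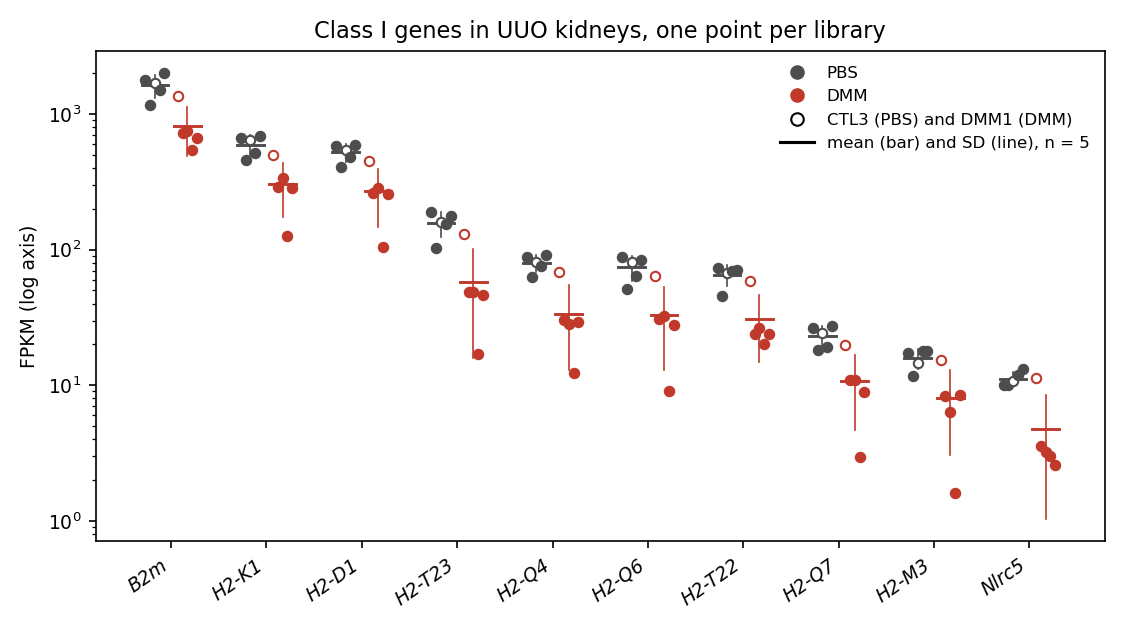
Level of each class I gene per length in every library, as FPKM on a log axis, with PBS in grey, DMM in red, CTL3 and DMM1 as open circles, a bar for the mean and a line for the SD of 5 libraries. DMM2 to DMM5 lie below all PBS libraries for each gene, and DMM1 lies within or next to the PBS values.

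All 10 class I genes were lower in DMM-treated kidneys, between 1.92-fold for H2-D1 and 2.70-fold for H2-T23 over all 10 libraries. The median log2 fold change of the 10 genes was -1.10, against 0.02 over the 16505 genes tested. DMM2, DMM3, DMM4 and DMM5 were below every PBS library for 10 of 10 genes, a pattern that 8.94% of all tested genes had (at least 4 DMM libraries below every PBS library). DMM1 was never below every PBS library, so that 0 of the 10 genes separated the groups completely, as 1.16% of all tested genes did. A gene is called lower or higher when it differs by more than 1.5-fold and its p, adjusted over all genes tested, is below 0.05. By edgeR's quasi-likelihood test, which is two-sided, 0 of 10 genes were called lower, as were 0 of 16505 genes in all (0.0%), with no adjusted p below 0.378. With the same fold but an unadjusted p below 0.05, here called the unadjusted threshold, 10 of 10 class I genes were lower, against 678 of 16505 genes (4.11%), and 315 genes were higher. DESeq2 called 2 of the 10, B2m and H2-T22, against 36 of 30851 genes called lower (0.117%) and 14 called higher. The DESeq2 shares, here and below, are of all genes with any count, including those that edgeR's filter removed. They are therefore not on the same base as the edgeR shares. By the exact two-sided permutation test of the mean log2 CPM, with 252 relabelings of the libraries and a smallest possible p of 0.00794, 10 of 10 genes were lower with an unadjusted p under 0.05, as were 8.1% of all tested genes. Over the 8 libraries the exact test gave each of the 10 genes p = 0.0286, the smallest that 70 relabelings allow. This p restates that DMM2 to DMM5 lay below every PBS library, as they did for 10.7% of all genes in this set.

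The calls depended on DMM1. Without that library, edgeR called 9 of the 10 genes lower, against 436 of 16760 genes (2.6%). With CTL3 left out as well, 9 of 10 were called lower, against 590 of 16550 genes (3.56%), and the exception was H2-M3. The median log2 fold change of the 10 genes was then -1.45, against 0.02 over all genes tested. Every DMM library lay below every PBS library for 10 of 10 class I genes, as for 10.7% of all genes in this set. This followed from the result over all 10 libraries, since DMM1 was the only DMM library not below every PBS library. The smaller adjusted p-values of edgeR over the 8 libraries, here and below, depend on leaving out DMM1. DESeq2 called all 10 lower over the 8 libraries, against 911 of 30191 genes (3.02%). The calls of H2-Q4, H2-T22, H2-T23, B2m and Nlrc5 were kept when any 1 of the 8 libraries was left out. Those of H2-K1, H2-D1, H2-Q6 and H2-Q7 were lost when any library other than DMM4 was left out (5 genes called), while without DMM4 all 10 genes were called. The number of all genes called lower was 590 over the 8 libraries. It was 572 without DMM2, 367 without CTL1, 349 without CTL2, 317 without CTL4, 276 without CTL5, 308 without DMM3, 302 without DMM5 and 1281 without DMM4. With library size alone as the scaling, the median log2 fold change of all genes shifted by -0.11 over the 8 libraries, 700 genes were called lower and 276 higher in place of 590 and 452, and 6 of the 10 class I genes were called. In bulk kidney RNA, fewer cells of a type that carries much class I and less class I RNA per cell cannot be told apart.

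**Figure D2:**
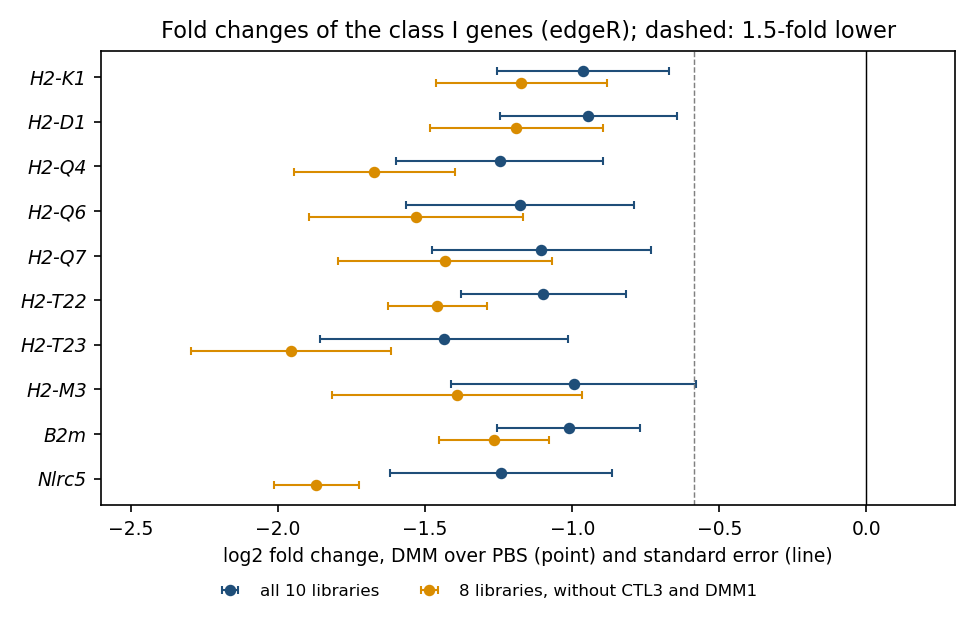
Log2 fold change of DMM over PBS from edgeR for each class I gene, with its standard error as a line, over all 10 libraries in blue and over the 8 libraries without CTL3 and DMM1 in orange. Every point lies beyond the dashed line of a 1.5-fold lower level, from -0.94 for H2-D1 over 10 libraries to -1.96 for H2-T23 over 8.

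The classical heavy chains, which present most peptides to CD8+ T cells, were lower to a similar extent. Values of a gene across libraries are given as CPM, counts scaled to the library size with TMM factors. H2-K1 was at 1746, 1207, 1695, 1342 and 1812 CPM in CTL1 to CTL5, and at 1294, 759.6, 878, 330.4 and 741 CPM in DMM1 to DMM5. The PBS kidneys lay between 1207 and 1812 CPM, DMM1 was inside that range, DMM2, DMM3 and DMM5 formed a tight group below it, and DMM4 was lowest. The means of H2-K1, with their SD over 5 libraries, were 1560.4 ± 269 CPM under PBS and 801 ± 345 CPM under DMM. The log2 fold change of H2-K1 (ENSMUSG00000061232, chr17:33996017-34000333, minus strand of mm10), with its standard error (SE), was -0.96 (SE 0.29, adjusted p = 0.378, edgeR's quasi-likelihood test), and -1.17 (SE 0.29, adjusted p = 0.0447, edgeR) over the 8 libraries. H2-D1 was at 1508, 1060.0, 1418, 1240.0 and 1538 CPM in CTL1 to CTL5, and at 1169, 674, 736, 272 and 664 CPM in DMM1 to DMM5. The libraries of H2-D1 stood in nearly the same arrangement, with CTL2 lowest among the PBS kidneys, DMM1 above it, and DMM4 far below the other DMM kidneys. H2-D1 (ENSMUSG00000073411, chr17:35262730-35267499) had a log2 fold change of -0.94 (SE 0.30, adjusted p = 0.385, edgeR's quasi-likelihood test), and -1.19 (SE 0.29, adjusted p = 0.0449, edgeR) over the 8 libraries. Exact two-sided permutation tests over all 10 libraries gave p = 0.0159 for H2-K1 and for H2-D1.

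The Q region chains H2-Q4, H2-Q6 and H2-Q7 are nonclassical molecules, of which Q6 and Q7 belong to the Qa-2 antigens. They were lower as well, and their difference from the classical chains was not tested. H2-Q4 was at 233, 164, 211, 198 and 239 CPM in CTL1 to CTL5, and at 179, 79.3, 73.8, 32.5 and 75.7 CPM in DMM1 to DMM5. DMM2, DMM3 and DMM5 lay within 6 CPM of each other, at less than the lowest PBS value, and DMM1 was between CTL2 and CTL4. H2-Q4 (ENSMUSG00000035929, chr17:35379617-35385290) had a log2 fold change of -1.25 (SE 0.35, adjusted p = 0.378, edgeR's quasi-likelihood test), and -1.67 (SE 0.27, adjusted p = 0.00986, edgeR) over the 8 libraries. H2-Q6 was at 186, 108, 171, 135 and 176 CPM in CTL1 to CTL5, and at 134, 64.2, 68.1, 19.3 and 57.8 CPM in DMM1 to DMM5. Again DMM1 overlapped with the PBS kidneys and DMM4 was the lowest library. H2-Q6 (ENSMUSG00000073409, chr17:35424850-35430055) had a log2 fold change of -1.18 (SE 0.39, adjusted p = 0.385, edgeR's quasi-likelihood test), and -1.53 (SE 0.36, adjusted p = 0.0388, edgeR) over the 8 libraries. H2-Q7 was at 113, 78.3, 104, 82.3 and 118 CPM in CTL1 to CTL5, and at 85.3, 47.3, 46.8, 12.8 and 38.2 CPM in DMM1 to DMM5. H2-Q7 (ENSMUSG00000060550, chr17:35439155-35443773) was the least abundant of the Q chains, with DMM1 above CTL2 and CTL4. Its log2 fold change was -1.11 (SE 0.37, adjusted p = 0.385, edgeR's quasi-likelihood test), and -1.43 (SE 0.36, adjusted p = 0.0489, edgeR) over the 8 libraries. Exact permutation tests gave p = 0.0159 for H2-Q4 and H2-Q6 and p = 0.0238 for H2-Q7.

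Of the T region chains, H2-T23 encodes Qa-1, which presents leader peptides of other class I chains to the NK receptor CD94/NKG2A, and H2-T22 encodes a ligand of gamma delta T cells. H2-T23 was at 548, 301, 466, 452 and 509 CPM in CTL1 to CTL5, and at 375, 141, 142, 49.5 and 135 CPM in DMM1 to DMM5. H2-T23 had the largest fold change of the 10 genes over either set of libraries, with DMM2, DMM3 and DMM5 at less than the lowest PBS value, DMM4 lower still and DMM1 between CTL2 and CTL4. The log2 fold change of H2-T23 (ENSMUSG00000067212, chr17:36029773-36032855, minus strand) was -1.43 (SE 0.42, adjusted p = 0.378, edgeR's quasi-likelihood test), and -1.96 (SE 0.34, adjusted p = 0.0117, edgeR) over the 8 libraries. H2-T22 was at 252, 157, 234, 237 and 242 CPM in CTL1 to CTL5, and at 201, 82.2, 90.4, 69.6 and 81.3 CPM in DMM1 to DMM5. For H2-T22 the 4 DMM libraries other than DMM1 lay close together, DMM4 included, and CTL2 was well below the other PBS kidneys. H2-T22 (ENSMUSG00000056116, chr17:36037128-36042747, minus strand) had a log2 fold change of -1.10 (SE 0.28, adjusted p = 0.378, edgeR's quasi-likelihood test), and -1.46 (SE 0.17, adjusted p = 0.00195, edgeR) over the 8 libraries. H2-M3 presents N-formylated peptides of bacteria and mitochondria. H2-M3 was at 25.2, 16.95, 21.3, 25.8 and 25.8 CPM in CTL1 to CTL5, and at 22.03, 12.0, 9.24, 2.36 and 12.2 CPM in DMM1 to DMM5. DMM1 was inside the PBS range and DMM4 was far below the other libraries. H2-M3 (ENSMUSG00000016206, chr17:37270220-37274484) had a log2 fold change of -0.99 (SE 0.42, adjusted p = 0.430, edgeR's quasi-likelihood test), and -1.39 (SE 0.42, adjusted p = 0.0881, edgeR) over the 8 libraries, so that it was not called in either set by edgeR, while DESeq2 called it over the 8. Exact permutation tests gave p = 0.0159 for H2-T23 and H2-T22 and p = 0.0238 for H2-M3.

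B2m is the light chain that every class I heavy chain needs to reach the surface, and it lies on another chromosome (ENSMUSG00000060802, chr2:122147686-122153083). B2m was at 1541, 1018, 1465, 1303 and 1729 CPM in CTL1 to CTL5, and at 1171, 624, 651, 475 and 577 CPM in DMM1 to DMM5. DMM1 was above CTL2 and below the other PBS kidneys, and DMM2 to DMM5 lay between 475 and 651 CPM, a narrower range than for the classical chains. The means of B2m, with their SD over 5 libraries, were 1411 ± 268 CPM under PBS and 699.6 ± 272 CPM under DMM. The log2 fold change of B2m was -1.01 (SE 0.24, adjusted p = 0.378, edgeR's quasi-likelihood test), and -1.27 (SE 0.19, adjusted p = 0.00683, edgeR) over the 8 libraries, and the exact permutation test gave p = 0.0159. Per length, B2m amounted to 1.01 to 1.14 times the sum of the 8 heavy chains in PBS kidneys, and to 1.04, 1.03, 0.976, 1.87 and 0.977 times in DMM1 to DMM5. The ratio of light to heavy chain transcripts was thus near 1 in 9 libraries and stood apart in DMM4, where B2m was at 546 FPKM and the heavy chains summed to 293 FPKM.

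Nlrc5, the class I transactivator, had the widest gap of the 10 genes between DMM1 and the other DMM kidneys, as a ratio. Nlrc5 was at 86.7, 85.4, 92.1, 101 and 112 CPM in CTL1 to CTL5, and at 96.4, 30.4, 27.3, 25.9 and 21.9 CPM in DMM1 to DMM5. DMM1 was above 3 of the 5 PBS libraries, whereas DMM2 to DMM5 lay between 21.9 and 30.4 CPM, all below the lowest PBS kidney at 85.4 CPM. DMM4 was not the lowest library for Nlrc5, in contrast to the heavy chains and B2m. The means of Nlrc5, with their SD over 5 libraries, were 95.5 ± 11.1 CPM under PBS and 40.4 ± 31.5 CPM under DMM. The log2 fold change of Nlrc5 (ENSMUSG00000074151, chr8:94434356-94527272) was -1.24 (SE 0.38, adjusted p = 0.378, edgeR's quasi-likelihood test), and -1.87 (SE 0.14, adjusted p = 1.88e-04, edgeR) over the 8 libraries. The latter was the smallest adjusted p among the 10 genes. The exact permutation test over all 10 libraries gave p = 0.0317, the largest of the 10.

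Relative to the mean of the PBS kidneys on the log2 scale, the 10 genes together averaged -0.17, -1.25, -1.25, -2.45 and -1.37 in DMM1 to DMM5. CTL2 was the lowest PBS library for each gene, at -0.39 on average. The genes differed from each other most in DMM4, from -3.21 for H2-M3 to -1.55 for B2m, and least in CTL5, from 0.13 for H2-T22 to 0.32 for B2m. In DMM2, DMM3 and DMM5, H2-T23 and Nlrc5 were the lowest of the 10 genes relative to PBS, and H2-K1 and H2-D1 were nearer to their PBS means. The nearest gene was H2-M3 in DMM2 and DMM5, at -0.92 and -0.90, and H2-K1 in DMM3, at -0.81. The make-up of the heavy chain pool differed as well. H2-K1 and H2-D1 made up 71.1% to 74.7% of the summed heavy chain FPKM in PBS kidneys, 72.7% in DMM1 and 78.2% to 80.1% in DMM2 to DMM5. The share of H2-T23 was 10.9, 8.91, 9.89, 11.2 and 10.01% in CTL1 to CTL5 and 9.94, 6.90, 6.33, 5.79 and 6.78% in DMM1 to DMM5. That of H2-T22 was 3.41% to 3.47% in DMM2, DMM3 and DMM5 but 6.89% in DMM4, above its PBS range of 3.94% to 4.96%. These differences in share were not tested.

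Class I genes arose by duplication and share sequence, so that part of their reads cannot be assigned to a single gene. Of all 100-base windows in the transcripts of H2-Q7, 12.0% also occurred in a transcript of another gene, most often H2-Q10, H2-Q5 or H2-Q6. For H2-Q6 the share was 10.8%, mostly with H2-Q7. For H2-T22 it was 8.86%, mostly with H2-T10, a gene with a median count of 109 per library. H2-D1, H2-T23, H2-Q4 and H2-K1 shared 3.59%, 3.15%, 2.16% and 0.957% of their windows, and H2-M3, B2m and Nlrc5 shared 0. How reads with several matches were counted is not given in the sources used here, and the values of H2-Q6, H2-Q7 and H2-T22 are uncertain to that extent. With counts summed over the Q chains H2-Q4, H2-Q6 and H2-Q7, the log2 fold change was -1.18 over 10 libraries and -1.57 over 8. For the sum of H2-T22 and H2-T23 it was -1.31 and -1.77, and for H2-K1 and H2-D1 -0.95 and -1.18. The strand setting of the counting is not given either, so that reads of a gene and of one on the opposite strand cannot be told apart. Nlrc5 overlaps the noncoding gene 9330175E14Rik on the opposite strand, with a mean count of 164 in PBS and 52.2 in DMM-treated kidneys. H2-Q4 overlaps Gm11131, with mean counts of 64.4 and 30.4, while A930015D03Rik, opposite H2-T22 and H2-T23, and Patl2, opposite B2m, had mean counts of at most 4.40.

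The 8 heavy chain genes lie within the MHC, from H2-K1 to H2-M3 (chr17:33996017-37274484), in an interval that also holds class II, proteasome and TAP genes. Of 105 tested genes of this interval that are not listed as class I heavy chains, 18 were lower and 0 higher at the unadjusted threshold (edgeR, 10 libraries), and 9 were called lower over the 8 libraries, against 4.11% and 3.56% of all tested genes. Their median log2 fold change was -0.22 over 10 libraries, between that of all tested genes and that of the heavy chains at -1.10. The low genes did not form one block. H2-K1 lay at one end with Tap1, Psmb8 and Psmb9 near it, H2-D1 and the Q chains lay further along, with genes of both low and near-zero fold change in between, and H2-T22 and H2-T23 stood beside H2-T24 and H2-T10. B2m on chromosome 2 and Nlrc5 on chromosome 8 had log2 fold changes in the same range as the chains on chromosome 17.

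**Figure D3:**
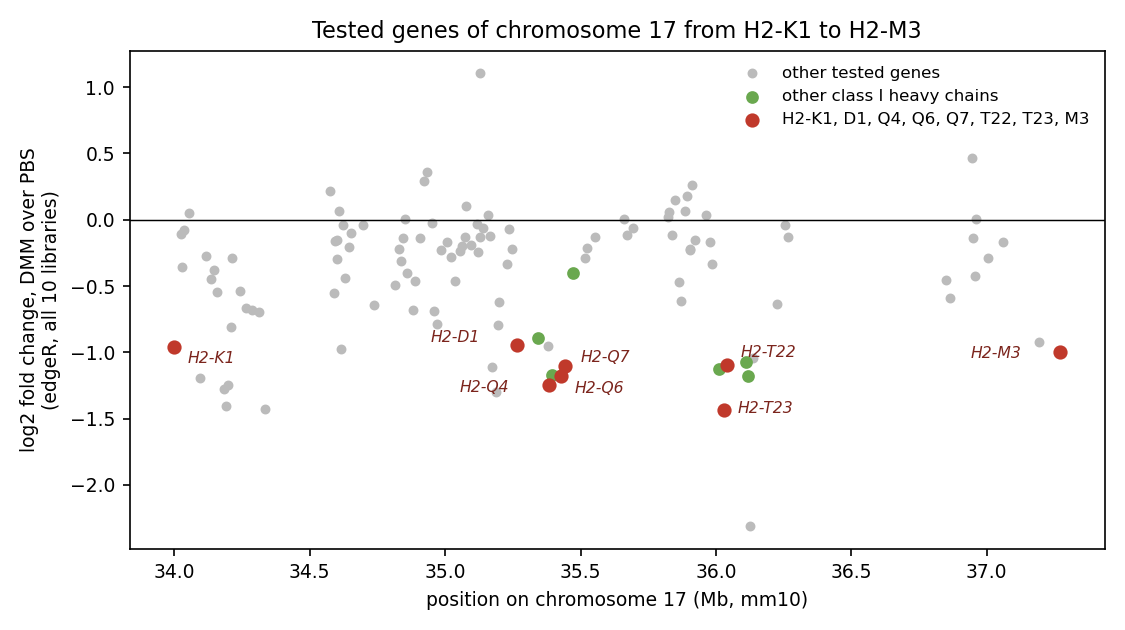
Log2 fold change of DMM over PBS (edgeR, all 10 libraries) of each tested gene against its position on chromosome 17 in Mb, from H2-K1 to H2-M3, with the 8 heavy chain genes in red, other class I heavy chains in green and other genes in grey. The red points lie between -0.94 and -1.43, and most grey points lie closer to 0, with a median of -0.22.

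Promoter sequences of the class I genes are described next. Whether the 10 genes varied together across the libraries was not tested. Class I promoters are known for an upstream block with a kappa B site and an interferon-stimulated element, followed by the X and Y boxes at which the Nlrc5 complex acts. RefSeq promoter windows (GRCm38.p6) were matched for 9 of the 10 genes, and Nlrc5 was not matched. The letters AANNGAAA (IRF core), searched on both strands, occurred in 9 of 9 genes, against 26.7% of all 27025 genes with such a window. GATTGG (Y box core) occurred in 8 of 9 genes, all but H2-M3, against 18.2%. GGGNNTTCC (kappa B) occurred in 5 of 9, H2-K1, H2-D1, H2-Q4, H2-Q6 and H2-Q7, against 6.58%. TGACGC (X2 box core) occurred in 4 of 9, H2-K1, H2-D1, H2-Q4 and H2-M3, against 8.37%, and TTCNNNGAA (GAS) in 1 of 9, H2-M3, against 9.55%. No matches of different motifs overlapped in these windows (0 pairs among 33 matches, counting both windows of H2-K1). A match describes letters only. The windows of H2-K1, H2-D1, H2-Q4, H2-Q6 and H2-Q7 are alike over long stretches. Their matches are therefore not independent of each other, and the shares of all genes do not measure how unusual these counts are. The bases directly upstream of the RefSeq start are printed for the light chain, a classical chain, and 1 chain each of the Q, T and M regions, to show how the arrangement differs between them, with every match in capitals: B2m at chr2:122147437-122147686 on the plus strand, H2-K1 at chr17:34000334-34000583 on the minus strand, H2-Q4 at chr17:35379367-35379616 on the plus strand, H2-T23 at chr17:36032702-36032951 on the minus strand and H2-M3 at chr17:37269984-37270233 on the plus strand. The RefSeq start is not always that of the deposited table. Of the printed stretch of H2-T23, 154 bases with all 3 of its matches lie inside the gene as deposited, as do 14 bases for H2-M3 and 1 for B2m, while the H2-D1 stretch, not printed, lies inside it entirely. The X2 match of H2-Q4 lies downstream of its start and is not in the printed stretch.
B2m: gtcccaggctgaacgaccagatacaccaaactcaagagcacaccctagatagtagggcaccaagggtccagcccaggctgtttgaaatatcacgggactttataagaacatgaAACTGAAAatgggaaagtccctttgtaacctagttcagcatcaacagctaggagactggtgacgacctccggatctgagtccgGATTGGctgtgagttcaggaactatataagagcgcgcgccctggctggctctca
H2-K1: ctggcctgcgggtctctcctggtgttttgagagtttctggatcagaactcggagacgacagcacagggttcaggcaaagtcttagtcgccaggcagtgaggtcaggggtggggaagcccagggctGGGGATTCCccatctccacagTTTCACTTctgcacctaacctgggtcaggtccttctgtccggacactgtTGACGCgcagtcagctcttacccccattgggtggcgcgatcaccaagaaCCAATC
H2-Q4: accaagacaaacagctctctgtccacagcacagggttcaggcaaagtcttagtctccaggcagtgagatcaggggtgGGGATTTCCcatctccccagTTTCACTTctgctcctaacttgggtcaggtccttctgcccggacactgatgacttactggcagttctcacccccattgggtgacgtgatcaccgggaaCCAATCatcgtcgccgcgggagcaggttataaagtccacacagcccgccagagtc
H2-T23: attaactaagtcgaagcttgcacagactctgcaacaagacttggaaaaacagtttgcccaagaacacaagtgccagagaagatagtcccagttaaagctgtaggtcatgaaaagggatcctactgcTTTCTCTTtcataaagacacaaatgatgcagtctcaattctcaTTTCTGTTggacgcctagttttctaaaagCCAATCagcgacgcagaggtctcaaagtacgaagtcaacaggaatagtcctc
H2-M3: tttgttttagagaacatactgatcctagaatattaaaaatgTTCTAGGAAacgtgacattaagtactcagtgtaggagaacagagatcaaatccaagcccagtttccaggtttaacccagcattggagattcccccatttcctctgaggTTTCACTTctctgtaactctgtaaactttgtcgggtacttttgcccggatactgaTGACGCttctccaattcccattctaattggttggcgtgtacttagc

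In these windows the kappa B match lay just upstream of the IRF match in H2-K1 (GGGGATTCC, then TTTCACTT) and in H2-Q4 (GGGATTTCC, then TTTCACTT). B2m had its IRF match on the opposite strand (AACTGAAA) and a Y box match near its start, with no kappa B match. H2-T23, the chain with the largest fold change, had 2 IRF matches (TTTCTCTT and TTTCTGTT) and a Y box match, with no kappa B match. H2-M3 had the same IRF letters as H2-K1 (TTTCACTT), an X2 box match and a GAS match (TTCTAGGAA) far upstream.

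Beyond the 10 genes, other class I heavy chains were mostly at low levels, and most of those tested were lower in DMM-treated kidneys at the unadjusted threshold. Of 28 listed, 21 were in the table and 8 were tested. At the unadjusted threshold (edgeR, 10 libraries), 5 of 8 were lower and 0 higher, with a median log2 fold change of -1.10, and 3 of 8 were called lower over the 8 libraries, against 4.11% and 3.56% of all tested genes. In the 8 libraries 7 of 8 were lower at the unadjusted threshold and 7 by DESeq2, against 7.24% and 3.02%. Those called by edgeR were H2-T24, H2-T10 and H2-Q5, whereas H2-Q10, at -0.41 over 10 and -0.36 over 8, was past the unadjusted threshold in neither set. H2-T24 was at 20.3, 17.4, 18.1, 23.8 and 20.6 FPKM in CTL1 to CTL5 and 22.4, 6.51, 4.34, 8.35 and 4.33 FPKM in DMM1 to DMM5, with DMM1 among the PBS values and the other DMM kidneys at less than the lowest PBS value. H2-Q5 had a log2 fold change of -1.17 over 10 libraries and -1.52 over 8, H2-T10 -1.18 and -1.55, and H2-K2 -1.18 and -1.77, the last with 0.114 FPKM in DMM4 against 3.55 to 4.77 FPKM in DMM2, DMM3 and DMM5. H2-Q5, H2-Q10 and H2-T10 share sequence with the genes above and are uncertain likewise. The summed level of the list was 105, 82.7, 96.0, 105 and 104 CPM in CTL1 to CTL5 and 97.0, 39.1, 35.02, 29.5 and 33.1 CPM in DMM1 to DMM5. No count was found in any library for 6 listed genes of the M region, H2-M1, H2-M10.1, H2-M10.3, H2-M10.4, H2-M10.6 and H2-M11. There a count of 0 allows up to 3 counts. Scaled to the total count alone, without the TMM factors of the other CPM values, this bound is 0.154 to 0.191 CPM.

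The machinery that supplies class I with peptides includes the proteasome, the TAP transporter and the chaperones that load peptide onto chains such as H2-K1. Of 16 genes of peptide supply and loading, 8 were lower and 0 higher at the unadjusted threshold (edgeR, 10 libraries), and 8 of 16 were called lower over the 8 libraries. The shares of all tested genes were 4.11% and 3.56%. In the 8 libraries, 9 of 16 were lower at the unadjusted threshold and 9 by DESeq2, against 7.24% and 3.02%. The TAP1 transporter gene had the largest fold change. Tap1 was at 45.8, 39.3, 41.3, 48.1 and 52.2 FPKM in CTL1 to CTL5 and 43.3, 13.1, 13.1, 6.91 and 9.35 FPKM in DMM1 to DMM5, a log2 fold change of -1.40 (SE 0.43, adjusted p = 0.378, edgeR), and -2.13 (adjusted p = 8.89e-04, edgeR) over the 8 libraries. As for H2-T23, DMM1 lay among the PBS kidneys and DMM4 was lowest. The immunoproteasome subunit Psmb9 was at 16.4, 17.1, 17.3, 16.7 and 22.5 FPKM in CTL1 to CTL5 and 17.7, 5.87, 7.08, 1.75 and 4.81 FPKM in DMM1 to DMM5, and its log2 fold change was -1.28 and -1.90 over 10 and 8 libraries. For Psmb8, another such subunit, it was -1.25 and -1.81, and for the loading factor tapasin, Tapbp, -0.96 and -1.30. Psmb10, with -1.06 over 10 libraries, was called over the 8 as well. The other genes called over the 8 libraries were Tap2, Tapbpl and Psme1. The general chaperones Calr, Canx and Pdia3 had log2 fold changes of -0.16, 0.29 and -0.15 over 10 libraries, and the trimming peptidase Erap1 -0.19. Summed over the list, the level was 3865, 3500.4, 3631, 3829 and 4031 CPM in CTL1 to CTL5 and 3840.0, 2780.4, 2693, 3584 and 2492 CPM in DMM1 to DMM5, with the most abundant gene Calr at 252 FPKM in PBS and 225 FPKM in DMM-treated kidneys.

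Among 25 transcription regulators of class I genes, Nlrc5 included, 6 were lower and 0 higher at the unadjusted threshold (edgeR, 10 libraries), and 7 were called lower over the 8 libraries, where all tested genes had 4.11% and 3.56%. In the 8 libraries, 8 of 25 were lower at the unadjusted threshold and 8 by DESeq2, against 7.24% and 3.02%. Those called by edgeR included Nlrc5, Irf1, Irf7, Irf8, Irf9 and Stat2. Irf7, an interferon-induced factor, had the largest fold change of the list. Irf7 was at 249.8, 92.3, 182, 188 and 206 FPKM in CTL1 to CTL5 and 129, 21.1, 17.1, 7.95 and 14.3 FPKM in DMM1 to DMM5, with a log2 fold change of -2.28 (SE 0.70, adjusted p = 0.378, edgeR) over 10 libraries and -3.61 over 8. Its spread among PBS kidneys was wide, with CTL2 below DMM1. Stat2, part of the type I interferon signal, had a log2 fold change of -1.48 over 10 and -2.39 over 8 libraries. The DNA-binding partners of Nlrc5 at the promoter and related factors, Rfx5, Rfxap, Rfxank, Nfya, Nfyb, Nfyc and Creb1, had log2 fold changes between -0.38 and 0.39 over 10 libraries, and edgeR called none of these over 8. These genes, named after their values were seen, spanned both directions. The median log2 fold change of the list was -0.20.

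The interferons themselves were at or near the limit of detection. Ifnb1, Ifna1, Ifna2, Ifna4, Ifnl2 and Ifnl3 had no count in any of the 10 libraries. Ifng had at most 7 counts in a library and was not tested. The interferon genes without counts were not tested either. The tested genes of this list were thus mainly receptor chains and the signalling kinases Jak1, Jak2 and Tyk2, which it includes. Of 9 tested genes, 0 were lower or higher at the unadjusted threshold (edgeR, 10 libraries). The shares of all tested genes were 4.11% lower and 1.91% higher. Over the 8 libraries, 0 were called by edgeR, 0 were past the unadjusted threshold and 0 were called by DESeq2. Of all genes there, edgeR called 3.56% lower and 2.73% higher. At the unadjusted threshold the shares were 7.24% and 6.45%, and by DESeq2 3.02% and 2.48%. With 9 genes, a count of 0 is near these shares. The largest log2 fold changes were those of Ifnar2 at -0.37, Tyk2 at -0.34 and Ifngr1 at -0.16. The most abundant, Ifngr1, was at 52.3 FPKM in PBS and 46.9 FPKM in DMM-treated kidneys, and the median of the list was -0.09.

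Receptors that read class I on T cells, NK cells and myeloid cells were at low levels. Of 11 tested, 2 were lower and 0 higher at the unadjusted threshold (edgeR, 10 libraries), and 2 were called over the 8 libraries, Klrk1, the NKG2D gene, and Pirb, a myeloid inhibitory receptor, with log2 fold changes of -1.60 and -0.59. Of all tested genes, 4.11% were lower at the unadjusted threshold and 3.56% were called lower over the 8 libraries. There, 3 of 11 receptors were lower at the unadjusted threshold and 3 by DESeq2, against 7.24% and 3.02% of all genes. Klrc1, the NKG2A gene whose product binds the H2-T23 molecule, had -1.44 over 10 libraries at a mean of 0.683 FPKM in PBS and 0.250 FPKM in DMM-treated kidneys. Klrk1 and Cd8a, the CD8 coreceptor gene, had -1.22 and -0.80. Class II presentation, which serves CD4+ T cells, had a smaller median log2 fold change than class I, at -0.59 over 10 libraries. At the unadjusted threshold 2 of 11 genes were lower, H2-Eb2 and H2-Aa, and over the 8 libraries edgeR called 0, with 7 past the unadjusted threshold, against 7.24% of all genes, and 4 called by DESeq2, against 3.02%. The largest log2 fold changes of that list were H2-Eb2 at -1.43, H2-Oa at -1.19 and H2-Eb1 at -0.70. Cd74, the most abundant, was at 1634 FPKM in PBS and 1091 FPKM in DMM-treated kidneys. The summed class II level was 5586, 5757, 5198, 3942 and 6012 CPM in CTL1 to CTL5 and 5555, 3964, 3322, 1308 and 2979 CPM in DMM1 to DMM5, and DMM4 was the lowest library as for H2-K1 and H2-D1.

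Class I-like genes outside the MHC, such as Mr1, Hfe and the neonatal Fc receptor gene Fcgrt, mostly lay nearer to 0 in fold change than H2-K1 and H2-D1, with a median log2 fold change of -0.29. Of 11 tested, 0 were lower and 1 higher at the unadjusted threshold (edgeR, 10 libraries), and 1 was called in each direction over the 8 libraries. Of all tested genes, 4.11% were lower and 1.91% higher at that threshold, and 3.56% and 2.73% were called over the 8 libraries. There, 1 of 11 was past the unadjusted threshold in each direction, as by DESeq2. Of all genes, 7.24% were lower and 6.45% higher at that threshold, and DESeq2 called 3.02% and 2.48%. The gene called higher was Azgp1, with a log2 fold change of 1.49 over 10 and 2.54 over 8 libraries, and that called lower was Mill2, with -0.54 and -0.82. H60c had -0.51 over 10 libraries. Fcgrt, which also pairs with B2m and was the most abundant, was at 75.2 FPKM in PBS and 74.5 FPKM in DMM-treated kidneys. Of 5 genes that act on class I turnover at the surface, 0 were lower or higher at the unadjusted threshold over 10 or 8 libraries, and 0 were called by edgeR or by DESeq2, with March4, March8 and March9 at 0.28, 0.22 and -0.14 over 10 libraries. Of 15 reference genes used in every cell, 0 were lower and 1, Tfrc at 0.71, was higher at the unadjusted threshold, with Eef1a1 and Sdha at 0.29 and 0.27. Among them edgeR called 0 over the 8 libraries, while 1 was higher at the unadjusted threshold, against 6.45% of all genes, and 1 was called higher by DESeq2, against 2.48%. The summed reference level was 9785, 10718, 9867, 10511 and 9869 CPM in CTL1 to CTL5 and 10011, 10339, 11269, 15082 and 10860.0 CPM in DMM1 to DMM5, highest in DMM4.

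Class I is carried by most nucleated cells and at high levels by leukocytes, and leukocyte markers are given beside H2-K1, B2m and the other class I genes. CTL2, the lowest PBS library for these genes, was also lowest for the NK cell sum, while CTL3 or CTL4 was lowest for the other leukocyte lists of this paragraph. At the unadjusted threshold (edgeR, 10 libraries) the macrophage and monocyte list had 8 of 11 lower and 0 higher, with 5 of 11 called lower over the 8 libraries, 8 lower there at the unadjusted threshold and 8 by DESeq2. For this and the following leukocyte lists, the shares of all tested genes to set beside these counts are 4.11% lower at the unadjusted threshold and, over the 8 libraries, 3.56% called lower, 7.24% lower at the unadjusted threshold and 3.02% called lower by DESeq2. The summed macrophage and monocyte level was 1881, 1685, 1511, 1850.2 and 2036 CPM in CTL1 to CTL5 and 1670.4, 1089.7, 922, 809 and 940.5 CPM in DMM1 to DMM5, and its most abundant gene was C1qb at 298 FPKM in PBS and 151 FPKM in DMM-treated kidneys. The pan-leukocyte list had 5 of 9 lower and 0 higher, with 5 of 9 called over the 8 libraries, 7 lower there at the unadjusted threshold and 6 by DESeq2. Its summed level was 1172, 1084, 1010.0, 1150.0 and 1312 CPM in CTL1 to CTL5 and 1059, 763, 585, 850.2 and 567 CPM in DMM1 to DMM5, led by Laptm5 at 57.5 FPKM in PBS and 39.5 FPKM in DMM-treated kidneys. In both lists DMM1 was within the PBS range and DMM2 to DMM5 were below it. DMM4, the lowest library for most class I genes, was also lowest for the macrophage and monocyte sum and the B and plasma cell sum. The lowest library was DMM5 for the pan-leukocyte sum and DMM3 for the T cell, NK cell and dendritic cell sums. T cell markers were sparse, with 6 of 11 lower and 0 higher and 1 of 11 called over the 8 libraries, 8 lower there at the unadjusted threshold and 4 by DESeq2. Their sum was 63.8, 72.0, 67.4, 53.4 and 96.8 CPM in CTL1 to CTL5 and 61.1, 54.7, 25.2, 30.6 and 28.8 CPM in DMM1 to DMM5, led by Trbc2 at 7.41 FPKM in PBS and 4.66 FPKM in DMM-treated kidneys. The NK cell list had 3 of 9 lower and 0 higher. Of these edgeR called 0 over the 8 libraries, with 2 past the unadjusted threshold and 1 called by DESeq2. Its sum was 22.8, 16.7, 22.9, 19.7 and 30.5 CPM in CTL1 to CTL5 and 20.2, 15.1, 8.50, 14.4 and 11.7 CPM in DMM1 to DMM5, led by Nkg7 at 6.13 FPKM in PBS and 3.17 FPKM in DMM-treated kidneys. The B and plasma cell list had 2 of 8 lower and 0 higher, with 2 of 8 called over the 8 libraries, 4 lower there at the unadjusted threshold and 4 by DESeq2. The sum was 83.2, 80.8, 66.0, 189 and 73.8 CPM in CTL1 to CTL5 and 77.2, 52.8, 40.9, 35.2 and 36.2 CPM in DMM1 to DMM5, led by Ighm at 39.6 FPKM in PBS and 18.5 FPKM in DMM-treated kidneys. Dendritic cell markers had 2 of 8 lower and 0 higher, with 2 of 8 called over the 8 libraries, 4 lower there at the unadjusted threshold and 4 by DESeq2. Their sum was 154, 133, 130.1, 126 and 157 CPM in CTL1 to CTL5 and 139, 94.2, 58.8, 104 and 70.3 CPM in DMM1 to DMM5, led by Itgax at 13.2 FPKM in PBS and 6.78 FPKM in DMM-treated kidneys. No marker of these lists was at 0 in all libraries. Their part in the class I result was not tested.

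Markers of kidney cells differed in part and, for tubules, mainly over the 8 libraries and in the direction opposite to H2-K1 and B2m. Proximal tubule markers had 0 of 12 lower and 2 higher at the unadjusted threshold (edgeR, 10 libraries), with 4 of 12 called higher over the 8 libraries, against 1.91% and 2.73% of all tested genes. Over the 8 libraries 10 of 12 were higher at the unadjusted threshold, against 6.45% of all genes, and 9 were called higher by DESeq2, against 2.48%. The median log2 fold change of the list was 0.82 over 10 libraries and 1.70 over 8, beside -1.10 and -1.45 for class I. Their sum was 3668, 3636, 9708, 1298 and 2603 CPM in CTL1 to CTL5 and 2702, 7582, 6327, 5378 and 9442 CPM in DMM1 to DMM5, led by Kap at 2926 FPKM in PBS and 3450.3 FPKM in DMM-treated kidneys. CTL3 had the highest and CTL4 the lowest proximal tubule sum of the 10 libraries, whereas H2-K1 and B2m were lowest among PBS kidneys in CTL2. The 8 libraries leave out CTL3 and also DMM1, which had the lowest proximal tubule sum of the DMM libraries. The larger counts of proximal tubule genes over the 8 libraries rest on that choice. The loop, distal and collecting duct list had 0 of 9 lower and 0 higher, with 4 of 9 called higher over the 8 libraries, 6 higher at the unadjusted threshold there and 5 by DESeq2. Its sum was 3163, 2642, 4397, 2001 and 1749.7 CPM in CTL1 to CTL5 and 2747, 4248, 4939.5, 1968 and 5281 CPM in DMM1 to DMM5, led by Umod at 754 FPKM in PBS and 971 FPKM in DMM-treated kidneys, and Pvalb of that list had at most 5 counts and was not tested. The fibroblast and myofibroblast list had 0 of 9 lower and 0 higher, with 2 of 9 called lower over the 8 libraries, 4 lower at the unadjusted threshold there and 4 by DESeq2. The shares of all tested genes lower were 3.56%, 7.24% and 3.02% in these tests. Its sum was 8202, 11528, 6431, 16516 and 11007 CPM in CTL1 to CTL5 and 13366, 6558, 4412, 9269.8 and 5129.8 CPM in DMM1 to DMM5, led by Col1a1 at 376 FPKM in PBS and 261 FPKM in DMM-treated kidneys. Neutrophil, endothelial, podocyte and tubular injury markers had 0 genes lower or higher at the unadjusted threshold over 10 or 8 libraries, and 0 called by edgeR or DESeq2, among 6, 8, 5 and 8 tested. Their summed levels had medians of 31.9, 969, 704 and 15437 CPM in PBS and 33.4, 965, 701 and 18769 CPM in DMM-treated kidneys. Their most abundant genes were S100a9 at 15.4 FPKM in PBS and 14.8 FPKM in DMM-treated kidneys, Plvap at 130.1 FPKM in PBS and 124 FPKM in DMM-treated kidneys, Podxl at 62.4 FPKM in PBS and 66.7 FPKM in DMM-treated kidneys, and Spp1 at 7753 FPKM in PBS and 9530.4 FPKM in DMM-treated kidneys. The neutrophil sum was high in CTL4 and DMM4, at 142 and 125 CPM. The part of these cells in the class I result was not tested.

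**Figure D4:**
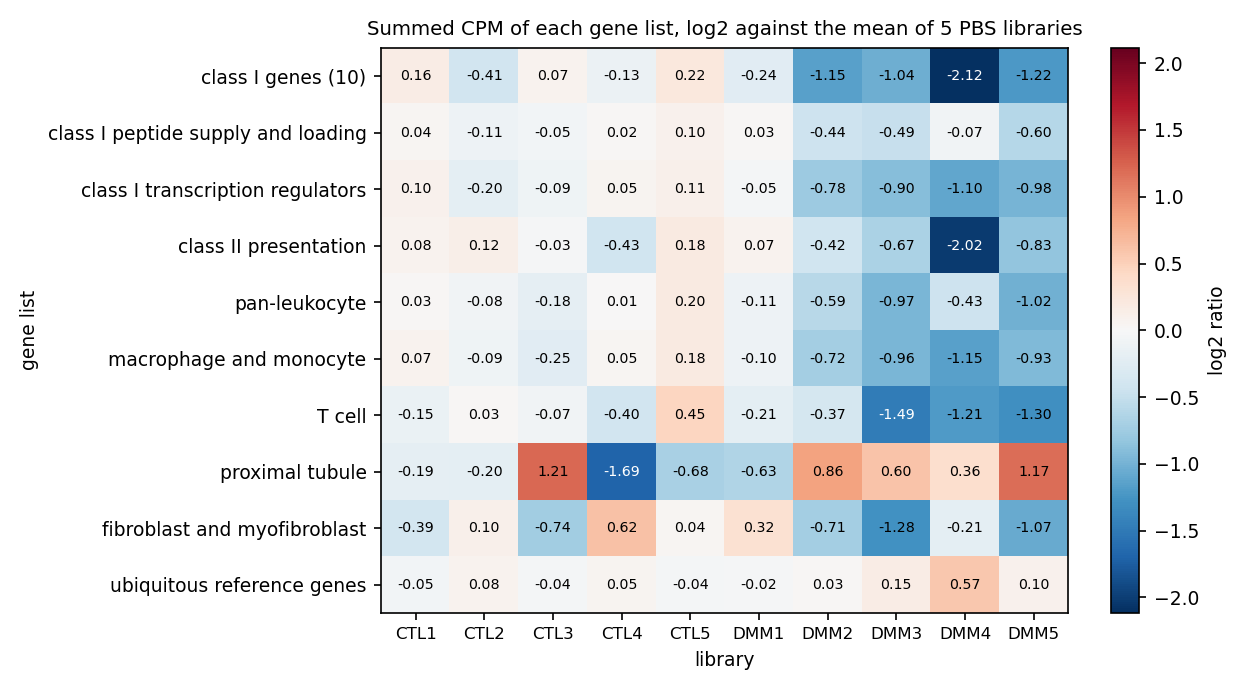
Summed CPM of gene lists in every library, as log2 of the ratio to the mean of the 5 PBS libraries, with blue for lower and red for higher. The class I genes are at -0.24 in DMM1 and -2.12 in DMM4, and the macrophage and monocyte list at -0.10 and -1.15.

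The genes whose profiles over the 10 libraries were closest to the class I mean were compared by the root mean square difference of centred log2 CPM. The closest was Ly6e, an interferon-induced surface protein gene, at 0.0814, followed by H2-Q5 at 0.0892, Parp10 at 0.139, the macrophage gene Aif1 at 0.142, Irf1 at 0.154 and Psmb10 at 0.155. The median over all other genes tested was 0.887. Ly6e had 1895 ± 296 CPM under PBS and 852 ± 477 CPM under DMM (mean ± SD, n = 5), with a log2 fold change of -1.15 over 10 and -1.54 over 8 libraries. Of the 10 class I genes, H2-Q4 lay nearest to their common mean at 0.0904 and Nlrc5 farthest at 0.383. The genes nearest to Nlrc5 were Slfn2 at 0.0984, Mndal at 0.146, Parp12 at 0.149 and Themis2 at 0.149, against a median of 0.970 over all other genes. Among the class I genes, H2-T22 was nearest to Nlrc5 at 0.292 and H2-M3 farthest at 0.640.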

How the data were processed

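RNA was sequenced from 10 obstructed kidneys, 5 given PBS and 5 given DMM, with 1 library per kidney and no pooling of replicates. Per the study's notes, the authors aligned reads with HISAT2 2.0.5 to mm10. The counting tool, the annotation release and the strand setting are not given. The deposited table holds raw counts per gene for each library. It also holds deposited FPKM, which the authors scaled by gene length and an effective library size. The authors' group means, a signal in units of scaled counts, were used only to compute which libraries enter them. The authors' log2 fold changes and p-values from DESeq2 were not used. Gene length was used as deposited, and 0 columns of values per sample were left unused.

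The 10 class I genes and all gene lists were chosen with earlier results of these data known. Counts were fitted with edgeR 4.0.16 (TMM scaling, filterByExpr, quasi-likelihood F test) in R 4.3.3, with p-values adjusted by Benjamini-Hochberg over all genes tested. Standard errors were taken from the fold change and the F value. CPM were computed with the TMM-scaled library sizes, except for the bound on genes without counts, which used the total count. Calls required an adjusted p below 0.05 and more than 1.5-fold difference. Single genes were also compared by an exact two-sided permutation test on log2 CPM with a prior count of 2. Alternatives were DESeq2 1.42.0, other scalings, filters and prior counts, the replicate number as a block, and leaving out each library. For DESeq2, all genes with any count were the base of the shares, and genes without an adjusted p were taken as not called. Shared sequence was counted in windows of 100 bases of GENCODE M21 transcripts, and promoters came from RefSeq. Python 3.11.15, pandas 2.3.3, scipy 1.17.1 and matplotlib 3.10.9 were used for summaries and plots. The fits were also run on simulated counts, with planted changes larger than those of the class I genes and no library standing apart. These runs do not show how well differences like those of the class I genes are recovered.

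Besides the 10 class I genes, the text names the 3 tested genes with the highest absolute log2 fold change from each list that is not a cell type, genes of the lists of other heavy chains and of peptide supply, the most abundant gene of each cell type list, and the genes nearest in profile. An exception is 1 listed gene whose values are not reported here, though counts and sums of its list include it. Other genes were named after their values were seen. The depth was 15722527 to 19475833 counts per library. A count of 0 was read as up to 3 counts, which covers counting error only, since reads are not independent molecules.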

Additional observations from a re-analysis of the deposited data

Results flagged for a closer look

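In 10 of 40 groups of libraries tested across the 10 class I genes, the highest or lowest library lay further from its nearest neighbour than Dixon's test allows, where chance gives about 1 in 20 groups. Groups of all 5 libraries and of the 4 libraries without CTL3 or DMM1 overlap, so these are not separate results.

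With all 10 libraries, DMM1 was far above the other DMM-treated kidneys for H2-T22 at 201 CPM, H2-T23 at 375 CPM, B2m at 1171 CPM and Nlrc5 at 96.4 CPM. Among PBS kidneys, CTL2 was far below the others for H2-T22, at 157 CPM. Over the 8 libraries, with values scaled in that set, CTL2 was again apart for H2-T22 at 157 CPM, and for H2-M3 at 16.9 CPM. DMM4 was far below the other DMM-treated kidneys for H2-D1 at 270.3 CPM, H2-Q4 at 32.3 CPM and H2-T23 at 49.3 CPM. Nothing was tested as a source of these values.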

How the results depend on the processing

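Over all 10 libraries, edgeR called 0 genes lower, 0 higher and 0 of the 10 class I genes. The counts were 678, 315 and 10 at an unadjusted p, 36, 14 and 2 by DESeq2, and 590, 452 and 9 over the 8 libraries without CTL3 and DMM1. They were 436, 50 and 9 without DMM1, and each was 0 when any other library was left out, so that leaving out 1 library gave 0 to 436, 0 to 50 and 0 to 9. The cause was not tested.

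Over the 8 libraries, DESeq2 called 911 genes lower in place of 590. Leaving out 1 library gave 276 to 1281 genes lower and 5 to 10 class I genes in place of 9, with fewer libraries in the fit. With the replicate number as a block, edgeR called 0 genes lower and 0 class I genes over the 8 libraries, where DESeq2 without a block called 911 and 10, and an unadjusted p gave 1198 lower. Libraries with the same number do not share an animal, their correlations over 5 pairs ran from -0.22 to 0.34, and 3 of 10 libraries correlated best with their own number. The cause was not tested.

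The exact permutation count of 10 class I genes was kept with prior counts of 0.5 and 5 and with library size alone. For single class I genes, 156 of 167 alternatives over 10 libraries stayed on the same side of the threshold and 11 passed it. With the 8 libraries 105 of 147 stayed, 40 no longer passed and 2 passed. No direction reversed. Over 10 libraries the log2 fold change had its widest range for Nlrc5, from -1.86 to -1.09, and its narrowest for B2m, from -1.28 to -0.90. With 8 libraries the widest was that of H2-Q7, from -1.67 to -1.15, and the narrowest that of Nlrc5, from -1.98 to -1.79. Of 17 listed genes of interferon ligands, their receptors and signalling kinases, 9 had enough counts to be tested.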
